A study of Mus musculus with 8 samples.

Results

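The genes described here are 10 core pluripotency factors of mouse embryonic stem cells (mESC), namely Pou5f1, Sox2, Nanog, Sall4, Utf1, Lin28a, Lin28b, Zfp42, L1td1 and Rif1. They were chosen by symbol, and all 10 were found among the 23845 gene symbols of the 8 deposited tables. The cells were mESC at passages 5 to 10, either wild type (WT) or knockout (KO) for METTL5, the methyltransferase that places N6-methyladenosine on the RNA of the small ribosomal subunit. RNA of whole cells (RNA-seq) and mRNA fragments protected by ribosomes, taken from the monosome fraction (Ribo-seq, here called footprints), were each sequenced from 2 WT and 2 KO libraries, with a small RNA kit for both. The design text speaks of biological replicates without giving separate cultures or the number of KO clones, so the tests measure the spread between these libraries, which may in part be technical.

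Embryonic stem cells keep their ability to form every tissue through a small set of transcription factors that activate one another. OCT4, the product of Pou5f1, and SOX2 bind DNA side by side at composite sites, many of them at genes of the same set, and NANOG binds many of the same regions. SALL4 and ZFP42 (REX1) are zinc finger proteins, UTF1 is a chromatin protein, LIN28A and LIN28B bind RNA and block maturation of the let-7 microRNAs, L1TD1 is an RNA-binding protein derived from a LINE-1 element, and RIF1 acts in replication timing and DNA repair.

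Each Ribo-seq library totalled 8401463 to 11487964 counts, and each RNA-seq library 152195 to 219567. CPM values are expected counts scaled to a common library total, and 3 counts, the limit that a count of 0 allows, stood at 0.261 to 0.357 CPM in Ribo-seq and 13.7 to 19.7 CPM in RNA-seq, for counting error only. Between 7.58% and 15.2% of the Ribo-seq counts fell on Rn45s, which encodes pre-ribosomal RNA. In RNA-seq it took 7.99% and 3.33% of the WT counts and 0.638% and 1.02% of the KO counts. Mettl5, the targeted gene, had 41.2 and 45.9 CPM of footprints in WT against 4.08 and 4.79 CPM in KO. The 10 factors together took 0.426% and 0.402% of the WT footprint counts and 0.407% and 0.351% of the KO footprint counts, so the pluripotent label of the cells was matched by footprints on every one of its factors in every library. Markers of other cell types were also present: over 10 endoderm markers the summed level was 778 and 946 CPM in WT and 358 and 471 CPM in KO. Over 9 mesoderm markers it was 4.53 and 2.53 CPM in WT and 19.2 and 29.4 CPM in KO, and over 9 trophoblast markers it was 125 and 118 CPM in WT and 309 and 336 CPM in KO. The keratins Krt8 and Krt18 carried that difference, since the other 7 trophoblast markers summed to 45.7 and 49.97 CPM in WT and 47.1 and 42.8 CPM in KO. The 10 fibroblast markers summed to 151 and 78.0 CPM in WT and 364 and 489 CPM in KO, with Lum at 0. The 9 neural markers summed to 170.2 and 117 CPM in WT and 113 and 87.8 CPM in KO, with Neurog2 at 0, and without the tubulin gene Tubb3 the other 8 summed to 26.1 and 25.4 CPM in WT and 47.5 and 31.3 CPM in KO. The part of these markers in the results below was not tested. In cultures measured in bulk, fewer cells of a type and less RNA per cell cannot be told apart.

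The promoters of Sox2, Nanog and Zfp42 are shown because they carry the DNA letters that OCT4, the leading factor of the set, is known to read. RefSeq promoters (GRCm38.p6, the assembly of mm10) were matched for 8 of the 10 factors, and the 250 bases before each start were searched on both strands. The octamer core ATGCAAA stood in the windows of 1257 of 27025 genes, or 4.65%, and in 3 of the 8 matched factors. On the other strand this core reads TTTGCAT. The octamer ATGCAAAT, which contains that core, stood in 1.81% of genes and in Zfp42 alone of the 8. A composite of the octamer core with a SOX site, made of CATTGT, then any base, then the core, on either strand, stood in 1 gene of 27025, and that gene was Nanog. A match is a description of letters and not a measured binding site. Each sequence is written 5' to 3' along the gene's strand, with the match in capitals. The Nanog window is chr6:122707239-122707488 (plus strand), with the composite from 75 to 62 bases before the start. The window of another RefSeq start, chr6:122707315-122707564, holds the same composite from 151 to 138 bases before that start. The Zfp42 window is chr8:43307010-43307259 (minus strand), with the core from 185 to 179 bases before the start. The Sox2 window is chr3:34649745-34649994 (plus strand), with the core from 99 to 93 bases before the start. This RefSeq start of Sox2 lies upstream of its GENCODE start at 34650405, so the core is further from the latter.
Nanog: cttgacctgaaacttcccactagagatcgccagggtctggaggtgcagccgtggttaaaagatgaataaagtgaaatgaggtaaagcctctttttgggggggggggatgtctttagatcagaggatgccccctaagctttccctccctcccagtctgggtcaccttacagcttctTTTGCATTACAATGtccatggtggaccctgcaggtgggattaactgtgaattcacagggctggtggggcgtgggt
Zfp42: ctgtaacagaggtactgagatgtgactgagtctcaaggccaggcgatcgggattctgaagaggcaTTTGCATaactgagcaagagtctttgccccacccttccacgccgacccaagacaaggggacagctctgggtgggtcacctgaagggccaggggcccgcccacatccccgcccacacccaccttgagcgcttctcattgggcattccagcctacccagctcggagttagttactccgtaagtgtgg
Sox2: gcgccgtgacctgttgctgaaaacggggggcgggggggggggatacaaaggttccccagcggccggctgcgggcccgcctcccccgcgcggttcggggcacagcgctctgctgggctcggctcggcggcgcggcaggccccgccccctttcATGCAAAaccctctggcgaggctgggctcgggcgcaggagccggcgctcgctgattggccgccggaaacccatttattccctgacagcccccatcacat

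The factors spanned a wide range of footprint levels. Levels of different genes are compared as deposited TPM, which divides by transcript length. In WT the order was Zfp42 (966 ± 23.0 TPM), Pou5f1 (799 ± 50.9), Utf1 (796 ± 187), L1td1 (355 ± 19.2), Nanog (262 ± 85.8), Sox2 (191 ± 10.7), Rif1 (56.7 ± 1.58), Sall4 (43.2 ± 9.09), Lin28a (17.8 ± 5.59) and Lin28b (1.5 ± 0.127; SD, n = 2 throughout). Of the neighbours in this order, Pou5f1 and Utf1, L1td1 and Nanog, and Nanog and Sox2 lay within the sum of their SDs. Zfp42 ranked 186 and Pou5f1 210 of the 12315 genes tested in footprints, while Lin28b ranked 10391. In KO the first place went to Pou5f1 (969 ± 94.2 TPM), followed by Utf1 (746 ± 225) and Zfp42 (636 ± 23.9). There Utf1 lay within the sum of the SDs of both Pou5f1 and Zfp42, so its place among them is not settled. The others kept their WT places except that Sall4 (48.5 ± 6.18) and Rif1 (48.3 ± 1.39) stood level.

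Because footprints lie mostly on coding sequence, transcripts with long untranslated ends get a low TPM, and the levels were also expressed as CPM per coding kilobase. By its mean, Lin28a, with 627 coding bases in a transcript of 3480, then rose from the ninth to the seventh place in WT (62.6 ± 20.6 CPM per coding kilobase). It stood above Sall4 (42.9 ± 10.5) and Rif1 (41.9 ± 1.84) but within the sum of the SDs of each, so its place is not settled. L1td1, with 2544 coding bases, went by its mean from the fourth to the sixth place (259 ± 18.1), below Nanog (397 ± 124) and Sox2 (309 ± 12.3). Nanog and L1td1 lay within the sum of their SDs, and Sox2 and L1td1 did not. Zfp42 stayed first at 1261 ± 9.71 and Lin28b last at 6.30 ± 0.416, so the ends of the order did not depend on the length used.

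**Figure D1:**
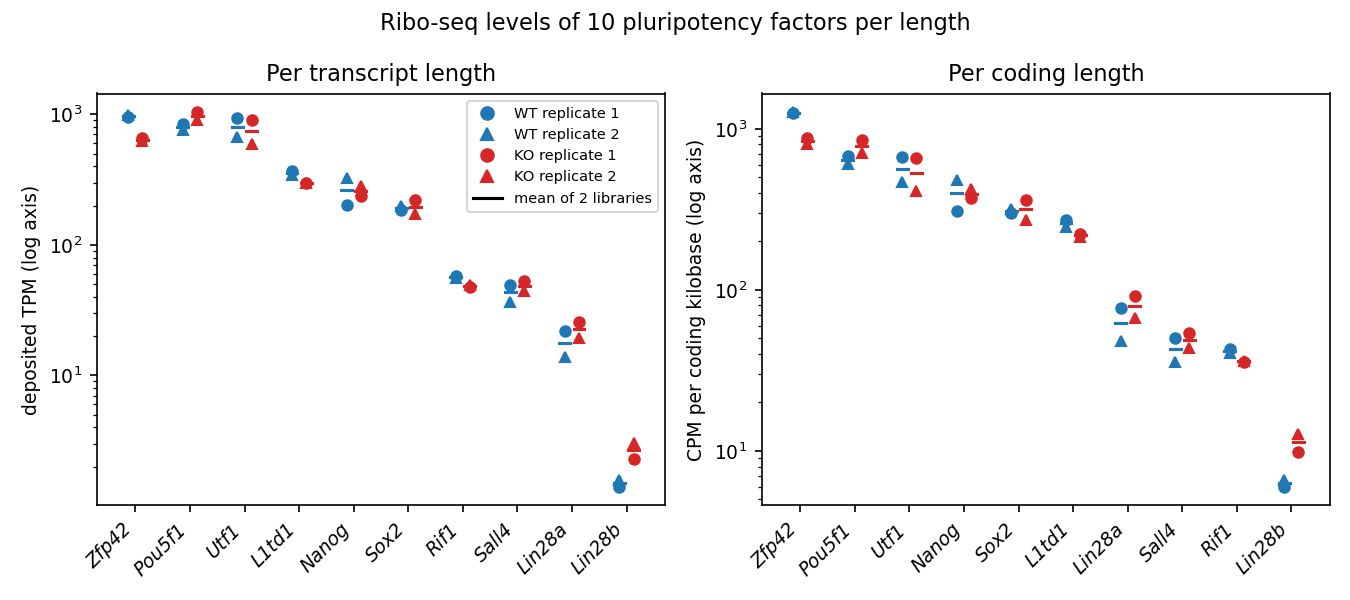
Ribo-seq level of each factor in each library, as deposited TPM (left) and as CPM per coding kilobase (right), both on log axes; blue is WT, red is KO, circles are replicate 1, triangles replicate 2 and bars the mean of 2 libraries. Zfp42 is first in WT on both scales, and the means of Lin28a and L1td1 change places with those of their neighbours between the scales.

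In the main fit, which had no replicate block, no factor passed the test of KO against WT in footprints. The fitted folds of 8 of the 10 lay between 0.854 and 1.27. In edgeR's quasi-likelihood test over 12315 genes, 0 of the 10 factors were called at an adjusted p below 0.05, against 2.44% of all genes (1.83% higher, 0.617% lower). At an unadjusted p below 0.05 there were 2 factors, against 19.4% of all genes. Of these 2, Lin28b was higher, as were 10.7% of all genes, and Zfp42 lower, as were 8.72%. DESeq2 called 1 factor, Zfp42, and 3.04% of all genes. An edgeR fit blocked on the replicate number called 3 factors, Zfp42, Lin28b and Lin28a, and 2960 of the 12315 genes. What that number marks is not stated. The libraries of the genotypes did not overlap for 5 factors, Pou5f1 and Lin28b being higher and Zfp42, L1td1 and Rif1 lower in KO, against 49.8% of all genes (24.3% higher, 25.5% lower). The median log2 fold change was 0.03 over the 10 factors and 0.01 over all genes. The shares of the main fit and of genes without overlap lie near the background or below it. The 1 of 10 factors called by DESeq2 and the 3 of 10 called with the block lie above theirs, on few genes.

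Pou5f1 encodes OCT4, the POU-domain factor without which the pluripotent state is lost. Its footprints were at 712 and 636 CPM in the WT libraries and 894 and 753 CPM in the KO libraries. Both KO libraries lay above both WT libraries. The log2 fold change was 0.30 (95% interval -0.07 to 0.66; adjusted p = 0.36, edgeR), which leaves room for changes from 0.954-fold to 1.58-fold. Pou5f1 lies on chromosome 17 from 35506018 to 35510772 (GRCm38, plus strand), where its exons overlap 317 bases of exons of the antisense gene Gm19553, a gene that is not among the table's symbols.

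Sox2, the DNA-binding partner of OCT4, had 287 and 304 CPM in WT and 346 and 261 CPM in KO. The KO libraries lay on either side of the WT pair. The log2 fold change was 0.05 (95% interval -0.33 to 0.42, adjusted p = 0.914, edgeR). Sox2, a gene with a single coding exon on chromosome 3, lies inside the long noncoding gene Sox2ot on the same strand and shares 0 exonic bases with it.

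Nanog, the homeobox factor that sustains self-renewal, had 283 and 443 CPM in WT and 339 and 386 CPM in KO. The WT libraries were the lowest and the highest of the 4, so the genotypes overlapped fully. The log2 fold change was 0.01 (95% interval -0.49 to 0.52, adjusted p = 0.98, edgeR), and it turned to -0.27 without WT replicate 1 and to -0.13 without KO replicate 2. Nanog lies on chromosome 6, whose 536 tested genes had a median of -0.38. With chromosome medians removed it was at 0.40 (adjusted p = 0.415).

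Sall4, a zinc finger factor that supports Pou5f1 expression, had 161 and 113 CPM in WT and 173 and 139.6 CPM in KO. The genotypes overlapped, and the log2 fold change was 0.20 (95% interval -0.24 to 0.63, adjusted p = 0.631, edgeR; -0.038 without WT replicate 2). Utf1, a chromatin protein and a known target of OCT4 and SOX2, had 677 and 473 CPM in WT and 668 and 418 CPM in KO. Its libraries of the same genotype differed by more than the genotype means, which were 575 ± 144 and 543 ± 176 CPM. Its log2 fold change was -0.08 (95% interval -0.62 to 0.46, adjusted p = 0.895, edgeR), and leaving out WT replicate 1 gave 0.21, leaving out KO replicate 2 gave 0.18.

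Zfp42, a marker of the naive state that is lost early when stem cells differentiate, had 1084 and 1096 CPM in WT and 754 and 691 CPM in KO. Both KO libraries lay well below both WT libraries, and the WT pair differed by 1.01-fold. The log2 fold change was -0.58 (SE 0.15, 95% interval -0.93 to -0.23), with an unadjusted p of 0.00440 and an adjusted p of 0.0904 in edgeR's fit over all genes. DESeq2 gave -0.59 with an adjusted p of 0.0368, and edgeR with a replicate block gave -0.58 with an adjusted p of 0.000328. Zfp42 lies on chromosome 8, whose 643 tested genes had a median of -0.22, and with chromosome medians removed its value was -0.36 (adjusted p = 0.289). Of the 3 factors with an octamer core before the start, Zfp42 was the one with separated libraries, and Sox2 and Nanog stood at 0.05 and 0.01.

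The LIN28 proteins keep let-7 microRNAs from maturing, and both genes had higher mean footprints in KO. Lin28a had 48.3 and 30.1 CPM in WT and 57.7 and 42.0 CPM in KO. Its genotypes overlapped, and its log2 fold change was 0.35 (95% interval -0.21 to 0.91, adjusted p = 0.49, edgeR). Leaving out 1 library moved the value to 0.74 (WT replicate 1), 0.04 (WT replicate 2), 0.16 (KO replicate 1) or 0.52 (KO replicate 2). Between libraries of the same number, KO over WT was 1.19 and 1.40. With a replicate block Lin28a stood at 0.37 (adjusted p = 0.0260, edgeR). Lin28b, the paralog with few footprints, had 4.88 and 5.36 CPM in WT and 8.05 and 10.4 CPM in KO, from 96 WT and 194 KO counts. Both KO libraries lay above both WT libraries, and the log2 fold change of 0.87 (SE 0.27, 95% interval 0.27 to 1.48) was the largest of the 10 in size. Its unadjusted p was 0.00970 and its adjusted p 0.127 (edgeR), while edgeR with a replicate block gave 0.85 with an adjusted p of 0.00378. DESeq2 did not call Lin28b (0.86, adjusted p = 0.309). The limma fit on log2(TPM + 1), a scale that understates changes of low genes, gave Lin28b 0.55 (adjusted p = 0.195). With no filter on low counts, edgeR gave Lin28b 0.88 (adjusted p = 0.0337). Of its 12 alternatives, 2 called Lin28b, and without KO replicate 2 its value was 0.62.

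L1td1, the RNA-binding protein of LINE-1 origin, had 691 and 625 CPM in WT and 569 and 545 CPM in KO. Rif1, the replication timing and repair protein with 7278 coding bases over 35 coding exons, had 315 and 296 CPM in WT and 261 and 262 CPM in KO. In both genes the KO libraries lay below the WT libraries without overlap and the differences were small. The log2 fold changes were -0.23 for L1td1 (95% interval -0.58 to 0.12, adjusted p = 0.471, edgeR) and -0.21 for Rif1 (-0.55 to 0.13, adjusted p = 0.493). At this replication the intervals leave room for Rif1 levels from 0.684 to 1.09 times those of WT.

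**Figure D2:**
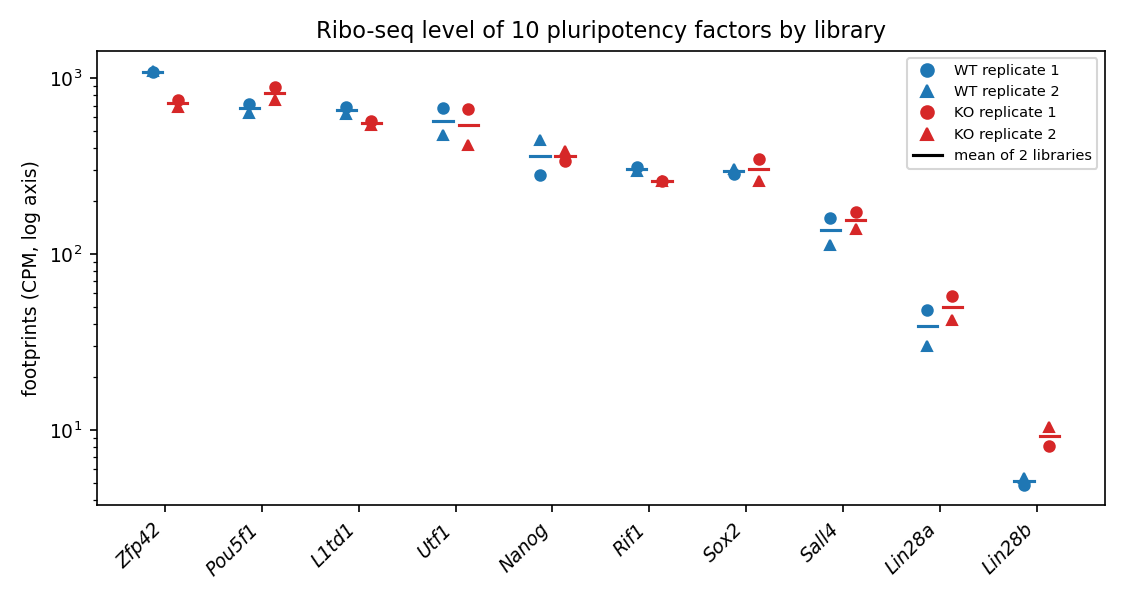
Footprint level of each factor in each library (CPM, log axis), ordered by the WT mean; blue is WT, red is KO, circles are replicate 1, triangles replicate 2 and bars the mean of 2 libraries. Zfp42 separates downward (1084 and 1096 against 754 and 691 CPM) and Lin28b upward (4.88 and 5.36 against 8.05 and 10.4 CPM), while Nanog, Sox2, Sall4, Utf1 and Lin28a overlap.

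**Figure D3:**
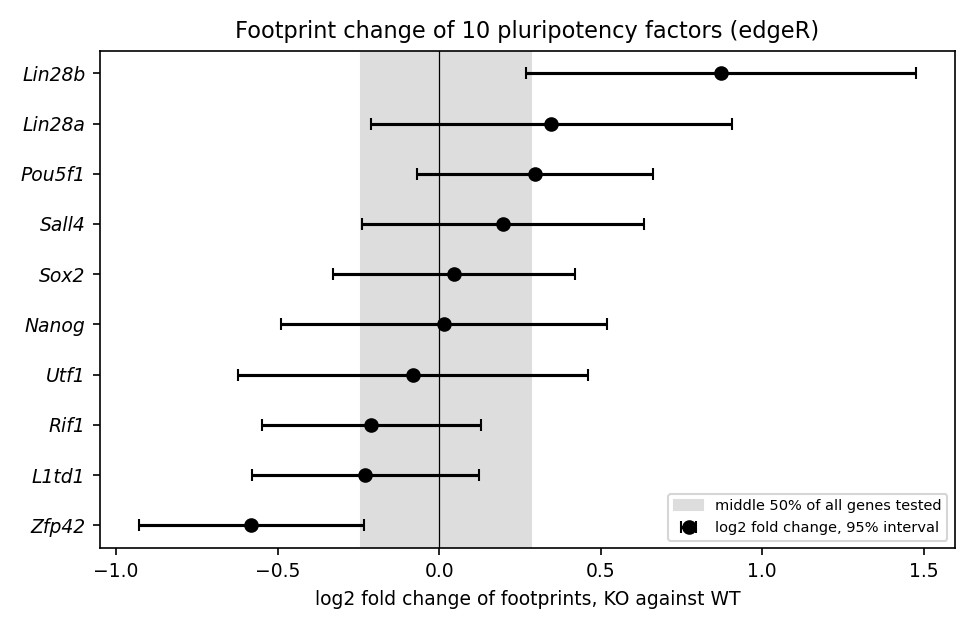
Log2 fold change of footprints, KO against WT, with 95% intervals from edgeR for the 10 factors; the grey band is the middle 50% of all 12315 genes tested. The intervals of Lin28b and Zfp42 leave out 0 before adjustment, and those of the other 8 factors span it.

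The RNA-seq tables held few counts for these genes. Only Pou5f1 and Nanog passed the filter on low counts, so 2 of 10 factors were tested, and neither was called (0 of 2, against 6.37% of the 2087 genes tested, 3.69% higher and 2.68% lower in KO), although both had an unadjusted p below 0.05, as did 23.1% of all tested genes (11.1% lower). DESeq2 called neither. Nanog had 246 and 347 CPM in WT and 171 and 178 CPM in KO, from 128 WT and 57 KO counts. Both KO libraries lay below both WT libraries, as for 21.7% of tested genes (51.8% did not overlap in either direction), and the log2 fold change was -0.84 (SE 0.33, adjusted p = 0.151, edgeR). Pou5f1 had 17 and 18 counts in WT and 3 and 4 counts in KO, that is 80.4 and 82.0 CPM against 19.7 and 23.1 CPM. Its log2 fold change was -1.98 (SE 0.64, 95% interval -3.37 to -0.58, adjusted p = 0.0907, edgeR), on counts close to the limit of detection.

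The other 8 factors were too low in RNA-seq for a test, and their pooled counts are given with exact intervals for counting error only. Zfp42 had 12 and 7 counts in WT and 4 and 2 in KO, a ratio of KO to WT of 0.418 (0.137 to 1.09). Sox2 had 3 and 6 counts in WT and 1 in each KO library, a ratio of 0.294 (0.0309 to 1.42). L1td1 had 4 and 2 counts in WT and 1 in each KO library (0.441, 0.0435 to 2.47), and Rif1 had 4 and 7 in WT and 4 and 9 in KO (1.56, 0.647 to 3.86). Sall4 had 3 WT and 7 KO counts in all, Lin28a 6 and 5, Lin28b 3 and 3, and Utf1 2 and 1. None of these 8 intervals left out 1, so no difference in RNA was detectable for them at this depth. The contrast between assays was large: Utf1, with 418 to 677 CPM of footprints, had 0 counts in 2 of the 4 RNA-seq libraries.

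**Figure D4:**
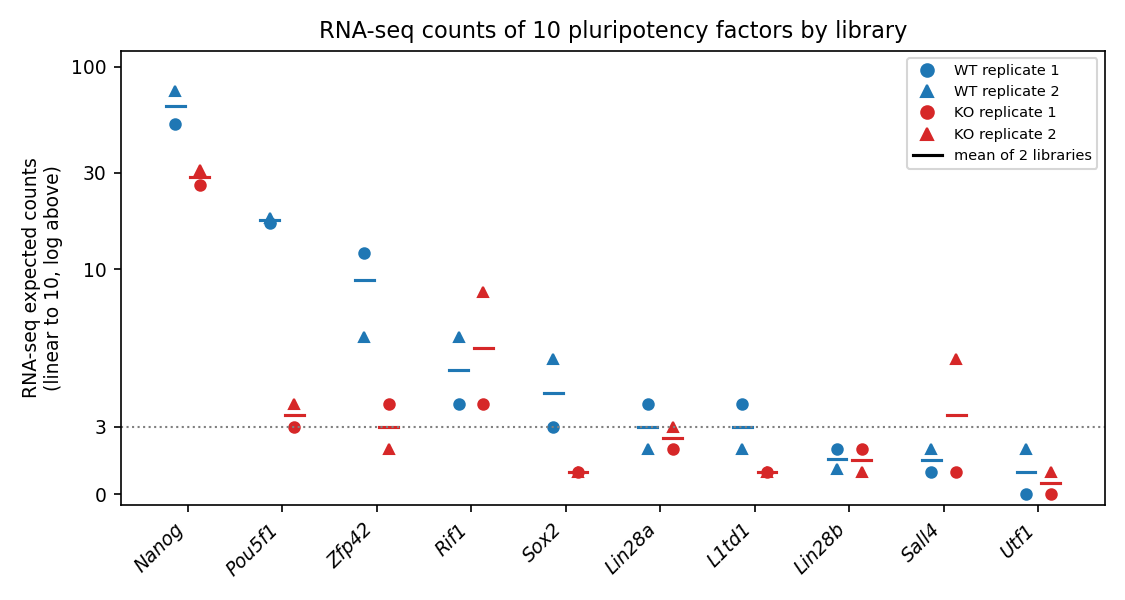
RNA-seq expected counts of each factor in each library (axis linear to 10, log above); blue is WT, red is KO, circles are replicate 1, triangles replicate 2, bars the mean of 2 libraries and the dotted line 3 counts. Nanog has 26 to 76 counts and Pou5f1 3 to 18, and the means of the other 8 factors lie below 10.

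Translational efficiency sets a gene's footprints against its own RNA-seq counts. The 2 factors that passed both filters were compared through an assay-by-genotype term in a single model. Pou5f1 was called higher in KO, with a log2 change of 2.33 (SE 0.47, 95% interval 1.32 to 3.35, adjusted p = 0.0146, edgeR over 1458 genes), and Nanog was not, at 0.89 (SE 0.42, adjusted p = 0.212). This is 1 of 2 factors, against 9.26% of all genes tested and 4.73% called higher, while 24.4% of genes had an unadjusted p below 0.05. Neither the footprints alone nor the RNA-seq counts alone passed for Pou5f1. Its efficiency value rests largely on the RNA-seq side, with 7 KO counts (log2 fold change -1.98 in RNA-seq and 0.30 in footprints). It lost its call without KO footprint replicate 1 (adjusted p = 0.0541), without KO footprint replicate 2 (0.0550) and with no filter on low counts (0.0778). Without Rn45s, an alternative added after seeing the data, it was 2.32 (adjusted p = 0.0150), and the RNA-seq values were -2.004 for Pou5f1 and -0.87 for Nanog.

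Other genes with many footprints also had lower shares of the KO RNA-seq counts, a comparison chosen after the values were seen. The 500 genes with most footprints, Rn45s left out and 5 of the 10 factors included, took 7.58% and 4.05% of the WT and 2.64% and 2.53% of the KO RNA-seq counts. Of the 161 of them tested in RNA-seq, 111 had negative log2 fold changes, with a median of -0.53 against 0.01 over all genes tested. Their median change in translational efficiency was 0.52, against -0.001 over all genes tested. The 100 genes with most footprints took 1.03% and 1.06% of the WT and 0.750% and 0.692% of the KO RNA-seq counts. Tdgf1, the Nodal coreceptor and a target of OCT4 and SOX2, was called lower in RNA-seq (log2 fold change -2.76, adjusted p = 0.0490, edgeR). It had 20 and 15 RNA-seq counts in WT and 2 in each KO library, which is under the limit of 3 counts. Its footprints did not pass (0.11, adjusted p = 0.875, edgeR). No alternative fits are given for Tdgf1. Its change in translational efficiency was 2.95 (adjusted p = 0.0327). The part of this shift in the Pou5f1 value was not tested.

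The genes lie on 8 chromosomes (GENCODE M21 on GRCm38). Beside Pou5f1 on chromosome 17, Sox2 spans 34650405 to 34652461 of chromosome 3 (plus strand) and Nanog 122707489 to 122714633 of chromosome 6 (plus strand, 4 coding exons). Sall4 spans 168748332 to 168767943 (minus strand, 4 coding exons) and Rif1 52072832 to 52122383 (plus strand) of chromosome 2. Utf1 spans 139943789 to 139945112 of chromosome 7 (plus strand, 2 coding exons) and Zfp42 43295063 to 43306980 of chromosome 8 (minus strand, 1 coding exon). Lin28a spans 134003330 to 134018841 (minus strand, 4 coding exons) and L1td1 98726734 to 98738480 (plus strand, 2 coding exons) of chromosome 4, and Lin28b spans 45376620 to 45486395 of chromosome 10 (minus strand, 5 coding exons). Exons of Sall4 overlap 526 bases of the opposite-strand gene Gm14261, and those of Lin28a 234 bases of Gm13061.

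Features of the transcripts bear on how their reads could be assigned. In the footprint tables the abundance-weighted length of Pou5f1 was 1353 bases in 3 libraries and 1352.82 in WT replicate 2, close to the longer of its 2 transcripts. In RNA-seq it was 1281 and 1180 bases in WT and 991 bases in both KO libraries, so RSEM placed the 7 KO counts on a shorter form. Stretches of 28 bases shared with GENCODE transcripts of other genes, on either strand, made up 25.2% of the Pou5f1 transcript, most of them shared with the antisense Gm19553, and 15.5% of the Zfp42 transcript, all shared with the pseudogene Zfp42-ps1. Shared stretches made up 12.5% of the Nanog transcript, over 1268 other genes with Nanog-ps1 sharing the most. They made up 11.2% of the L1td1 transcript, most of them shared with Gm48515. Gm19553, Zfp42-ps1, Nanog-ps1 and Gm48515 are not among the counted symbols. Shared stretches were 5.27% for Sall4, 2.27% for Lin28a, 1.33% for Sox2 and 0.744% for Lin28b, and Utf1 and Rif1 had 0. The values of Pou5f1, Zfp42, Nanog and L1td1 are therefore the less certain ones where reads can be shared, and whether the counting used strand is not given here.

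Genes that work with these factors were read from lists of targets, partners and relatives. Few were called in the main footprint fit, which had no replicate block. Their counts are to be read against all genes tested, of which 2.44% were called and 19.4% had an unadjusted p below 0.05. With a replicate block, edgeR called 2960 of the 12315 genes. That fit also called every gene named below from these lists except Terf2ip (adjusted p = 0.0643, edgeR). Of 11 target genes of OCT4 and SOX2, 0 were called by edgeR (4 at an unadjusted p below 0.05), with a median log2 fold change of 0.11 against 0.01 over all genes. Fgf4, a growth factor with a well-studied OCT4 and SOX2 enhancer, was at 53.6 and 62.8 CPM in WT and 93.8 and 98.4 CPM in KO (0.74, adjusted p = 0.0547; 0.0285 by DESeq2). Spp1, the secreted protein osteopontin, had 0.76 (adjusted p = 0.156) and the chromatin factor Dppa4 had -0.43 (0.147).

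Of 14 naive network factors, 1 rose and none fell (4 at an unadjusted p below 0.05; median 0.12). Tfcp2l1, a naive transcription factor, rose from 69.3 and 70.1 CPM to 133 and 102 CPM (log2 fold change 0.76, SE 0.16, adjusted p = 0.0491, edgeR). The call was lost without WT replicate 2 (adjusted p = 0.0518), without KO replicate 1 (0.294), with the filter raised to 50 mean counts (0.0585), with chromosome medians removed (0.0546) and in limma on TPM (0.117). Nr5a2, a nuclear receptor that can act at the Pou5f1 promoter, had -0.50 (adjusted p = 0.16), and Stat3, the effector of LIF signalling, had -0.38 (0.209).

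Of 21 protein partners of OCT4 and NANOG, which include the NuRD and BAF chromatin complexes, 0 were called (4 at an unadjusted p below 0.05; 0.06 median). Tet2, an enzyme that oxidises methylated cytosine, had 0.70 (adjusted p = 0.114), Arid3b 0.52 (0.158) and the NuRD subunit Mta3 0.46 (0.214). Of 13 tested partners of RIF1, 0 were called (2 at an unadjusted p below 0.05), with a median of -0.14. Nearest to the threshold were the helicase Blm (-0.41, adjusted p = 0.229), the replicative helicase subunit Mcm2 (-0.42, 0.256) and the telomere protein Terf2ip (-0.36, 0.347). DESeq2 called none of the 6 genes named in these 2 lists, while edgeR with a replicate block called all of them but Terf2ip. With no filter on low counts, Tet2 was called (adjusted p = 0.00849, edgeR) and the others were not.

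In the LIN28 and let-7 list, 1 of 19 tested genes rose and none fell (3 at an unadjusted p below 0.05; median 0.12). Hmga2, a chromatin protein and a classic let-7 target, rose from 3.44 and 1.79 CPM to 8.69 and 11.4 CPM (log2 fold change 1.93, SE 0.35, adjusted p = 0.0289, edgeR). Both KO libraries lay above both WT libraries, and the call was lost without KO replicate 2 (adjusted p = 0.0510) and in limma on TPM (0.0514). Its translational efficiency was also called higher (2.41, SE 0.56, adjusted p = 0.0238, edgeR), on 29 and 25 RNA-seq counts in WT and 13 and 19 in KO. Igf2bp3, an RNA-binding protein and let-7 target, had 0.47 (0.208), and Dgcr8, a subunit of the microprocessor that cuts primary microRNAs, had -0.48 (0.219).

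Relatives of the factors by protein family had the highest median of the 6 related lists, 0.40 over 17 tested genes, with 1 called higher and none lower, and 8 at an unadjusted p below 0.05. Sox11, a SOX factor of neural progenitors, rose from 11.8 and 7.15 CPM to 24.8 and 23.0 CPM (log2 fold change 1.34, SE 0.25, adjusted p = 0.0344, edgeR), and its adjusted p was 0.0691 in limma on TPM. Sox3, a close relative of Sox2, was at 2.74 and 3.05 CPM in WT and 6.75 and 7.26 CPM in KO (1.27, adjusted p = 0.0547), and Sox4 had 0.84 (0.104). Sox2 itself stood at 0.05 in the same fit.

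**Figure D5:**
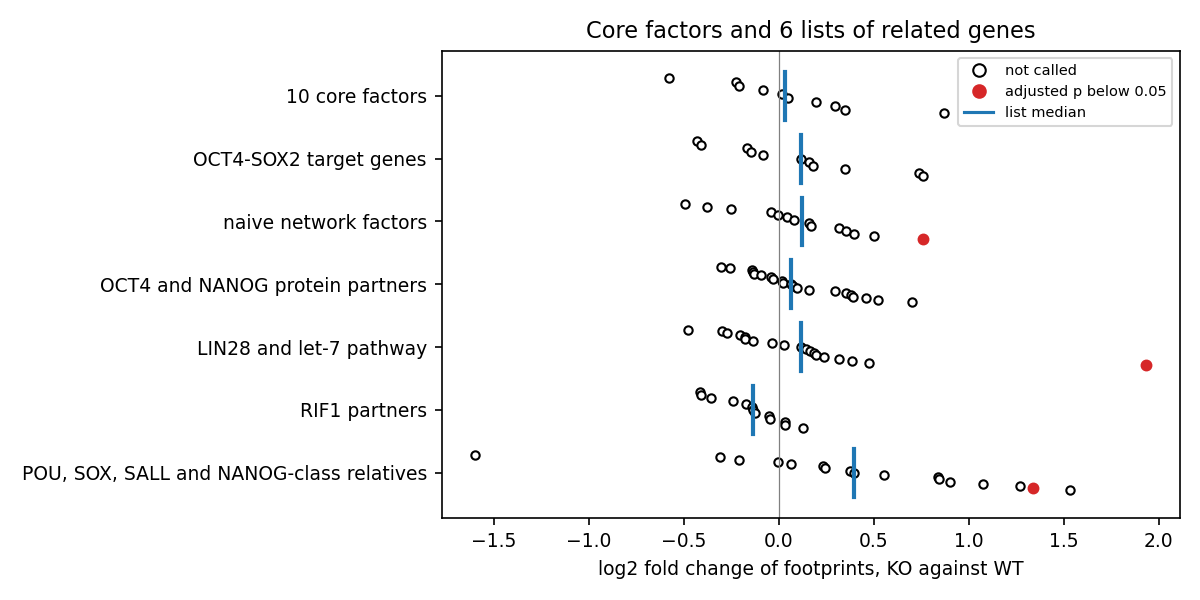
Log2 fold change of footprints, KO against WT, for the 10 core factors and for 6 lists of related genes; each point is a tested gene, red points have an adjusted p below 0.05 (edgeR) and blue bars are list medians. Tfcp2l1, Hmga2 and Sox11 are the called genes, and the core factors spread from -0.58 to 0.87 around a median of 0.03.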

How the data were processed

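Each of the 8 libraries came as 1 table. Alignment to mm10 with Bowtie2 2.3.4.3 and counting with RSEM are named in the submitters' processing notes; strand and other settings are not given. The authors deposited expected counts, per the file headers, which split shared reads between genes. Deposited TPM values, per the file headers scaled by effective length, were used for the order of genes and in 1 alternative. Gene and effective lengths in bases are per the file headers, and deposited FPKM was left aside.

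Expected counts were rounded and tested with edgeR 4.0.16 (R 4.3.3; robust quasi-likelihood fit, TMM, filterByExpr, Benjamini-Hochberg adjustment over all genes tested), each assay apart, and calls were made at adjusted p < 0.05. The efficiency term was the interaction of assay and genotype over 8 libraries. Standard errors and 95% intervals were derived from the F statistics. Replicate pairs differed by more than sampling noise (chi-square per degree of freedom 1.68 to 19.4). The steps were also run on simulated counts. These had the same dispersion for every gene and independent libraries, so they do not represent the spread between the real replicates. Gene positions and coding lengths came from GENCODE M21 (GRCm38), promoters from RefSeq.

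Members and lists were chosen with earlier results of these data known. The text names the 10 factors, Mettl5, and from each of the 6 related lists up to 3 genes of smallest p in footprints plus any called; Tdgf1 was called in RNA-seq. Alternatives were DESeq2 1.42.0 and its size factors, other filters, a replicate block, leaving out each library, limma 3.58.1 on log2(TPM + 1), leaving out Rn45s, removing chromosome medians and, added after seeing the data, RNA-seq and efficiency fits without Rn45s and coding length for the order of genes.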

Additional observations from a re-analysis of the deposited data

How the results depend on the processing

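The count of genes called in footprints was 301, and it was 1110 with no filter, 186 at a mean count of at least 50, 172 in limma on log2(TPM + 1) and 189 to 761 leaving out a library (761 without WT replicate 1, 505 without WT replicate 2, 189 without KO replicate 2). Called factors, 0 of 10, were 1 in DESeq2, 2 with no filter (Zfp42 and Lin28b) and 0 without any one library. Blocking on the replicate number gave 2960 genes (1566 higher, 1394 lower) and 3 factors called, namely Zfp42 (-0.58, adjusted p = 0.000328), Lin28b (0.85, 0.00378) and Lin28a (0.37, 0.0260). The deposited names of same-numbered footprint libraries share a tag, and what it or the number marks is not stated. Deviations of same-numbered footprint libraries correlated by 0.433. Values near 0 changed sign. Sox2 was -0.024 after removal of chromosome medians and -0.12 to 0.20 leaving out a library (-0.12 without KO replicate 1), Nanog -0.27 without WT replicate 1 and -0.13 without KO replicate 2, Sall4 -0.038 without WT replicate 2 and 0.48 without WT replicate 1, and Utf1 -0.40 without KO replicate 1, 0.18 without KO replicate 2 and 0.21 without WT replicate 1. Pou5f1, Lin28a, Lin28b, Zfp42, L1td1 and Rif1 kept their footprint direction in 12 of 12 alternatives. The RNA-seq count of 133 was 75 in DESeq2, 76 at a mean count of at least 50 and 73 to 242 leaving out a library (242 without WT replicate 1, 73 without KO replicate 1). The translational efficiency count of 135 was 17 at a mean count of at least 50 and 18 to 154 leaving out a library (18 and 40 without KO footprint replicates 2 and 1, 69 and 83 without WT footprint replicates 1 and 2, 57 and 75 without KO RNA-seq replicates 1 and 2). Called factors in translational efficiency, 1 of 2, were 0 with no filter and 0 to 1 leaving out a library, and Pou5f1 ranged from 2.18 to 2.64 over its 13 alternatives, with 10 calls. At a mean count of at least 50 no factor was left in RNA-seq. The cause of these differences was not tested.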

Other observations

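Genes with the octamer core in the 250 bases before a RefSeq start had footprint values close to those of all genes. Among the 364 of them in the footprint test, 7 rose and 2 fell in KO, with a median log2 fold change of 0.03, while the 9292 tested genes with a promoter in the table had a median of 0.00. For the octamer of 8 letters, 148 genes were tested, with 4 called higher, 2 lower and a median of 0.08. Over all 12315 genes tested, 1.83% were called higher and 0.617% lower.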
